A study of Homo sapiens with 12 samples.

Results

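The 8 genes described here, ABCB1, ABCB6, ABCC1, ABCC2, ABCC3, ABCC5, ABCC10 and ABCG2, encode ATP-binding cassette (ABC) transporters known for pumping drugs out of cells. They were chosen by symbol, and all 8 were found among the 54127 genes of the count files. Their transcripts were measured by RNAseq in C4-2 cells, a castration-resistant prostate cancer line derived from LNCaP. The cells were grown in RPMI medium with serum and treated for 6 h with DMSO, the vehicle, or with 1 µM PBKi (TOPK32, also written HI-TOPK-032), which blocks the catalytic activity of PDZ binding kinase. There were 6 libraries in each group, all from this line, and the labels describe the RNA as coming from flow sorted cells. Nothing states that the replicates were separate cultures, so the p-values measure the spread between these libraries, which may be technical. The comparison asked which of the 8 pumps differed in transcript level between the groups.

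ABC transporters bind and hydrolyse ATP on the inner face of a membrane and use that energy to move a substrate across it, usually outward. ABCB1, ABCG2 and members of the C subfamily (the multidrug resistance proteins, MRPs) are textbook causes of resistance to chemotherapy when tumour cells make more of them. Many C members carry substrates conjugated to glutathione, glucuronate or sulphate, so they are often described as the export step that follows drug metabolism. NRF2 (NFE2L2), which binds antioxidant response elements, and the aryl hydrocarbon receptor (AHR) are known activators of several of these genes.

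Libraries held 9663203 to 28029908 reads on genes in DMSO (median 13801732.5) and 13122415 to 22817803 in PBKi (median 14516359.5). Levels are given in CPM, the read count scaled to library size with TMM factors, and 3 reads corresponded to 0.108 to 0.325 CPM, depending on the library. The share of reads outside genes was 5.74 to 6.96% over the DMSO libraries and 5.94 to 9.30% over the PBKi libraries, where replicates 3 (9.30%) and 6 (8.83%) were highest. All 8 luminal prostate markers were above 1 CPM in both groups, with a summed level of 4631 to 5504 CPM in DMSO and 2381 to 3240 CPM in PBKi (1 of the 8 higher and 4 lower at an adjusted p under 0.05). The part of this fall in the transporter values was not tested. Basal markers summed to 1.33 to 1.84 CPM and 0.813 to 1.61 CPM, and immune markers to 0.208 to 0.397 CPM and 0.295 to 0.738 CPM. Stromal markers were carried by COL1A1 (sums of 17.9 to 23.3 CPM in DMSO and 17.1 to 21.7 CPM in PBKi) and endothelial markers by VWF (4.08 to 7.57 CPM and 3.23 to 4.77 CPM), with the other markers of both lists under 1 CPM. In bulk RNA, a change in the number of cells that make a transcript and a change in the amount per cell cannot be told apart.

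Of 14505 genes that passed the filter on low counts (at least 10 reads in at least 6 libraries), 20.1% were higher and 21.5% lower in PBKi at an adjusted p under 0.05 (quasi-likelihood test of edgeR, adjusted over all genes tested by the Benjamini-Hochberg method). Of all calls, 48.3% were higher; with library totals in place of TMM factors that share was 60.0%, at 3602 genes higher and 2402 lower, against 2921 and 3125 here. Against that background, 6 of the 8 transporters passed the filter, and these 6 were higher in PBKi and 0 lower. DESeq2 and limma-voom gave the same counts. ABCC3 passed only through the PBKi libraries, so it could be tested only because it was high there, and its call is not support for the list. Without it, 5 of 5 tested members were higher. For 5 of the 6 (ABCC3, ABCG2, ABCB6, ABCC1 and ABCC10) all PBKi libraries lay above all DMSO libraries, an arrangement seen for 10.5% of all genes tested. Without ABCC3 this was 4 of 5. ABCB1 and ABCC2 had too few reads for the test. The PBKi library was above the DMSO library of the same number in 6 of 6 cases for ABCC5, 5 of 6 for ABCB1 and 3 of 6 for ABCC2. For the 5 genes without overlap this comparison was fixed in advance and adds nothing. Without PBKi replicates 3 and 6, the log2 fold changes were 1.93 for ABCC3, 0.82 for ABCG2, 0.48 for ABCB6, 0.30 for ABCC10 and 0.30 for ABCC1, all at an edgeR adjusted p of 0.0195 or less, and ABCC5 is described under its own values.

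**Figure D1:**
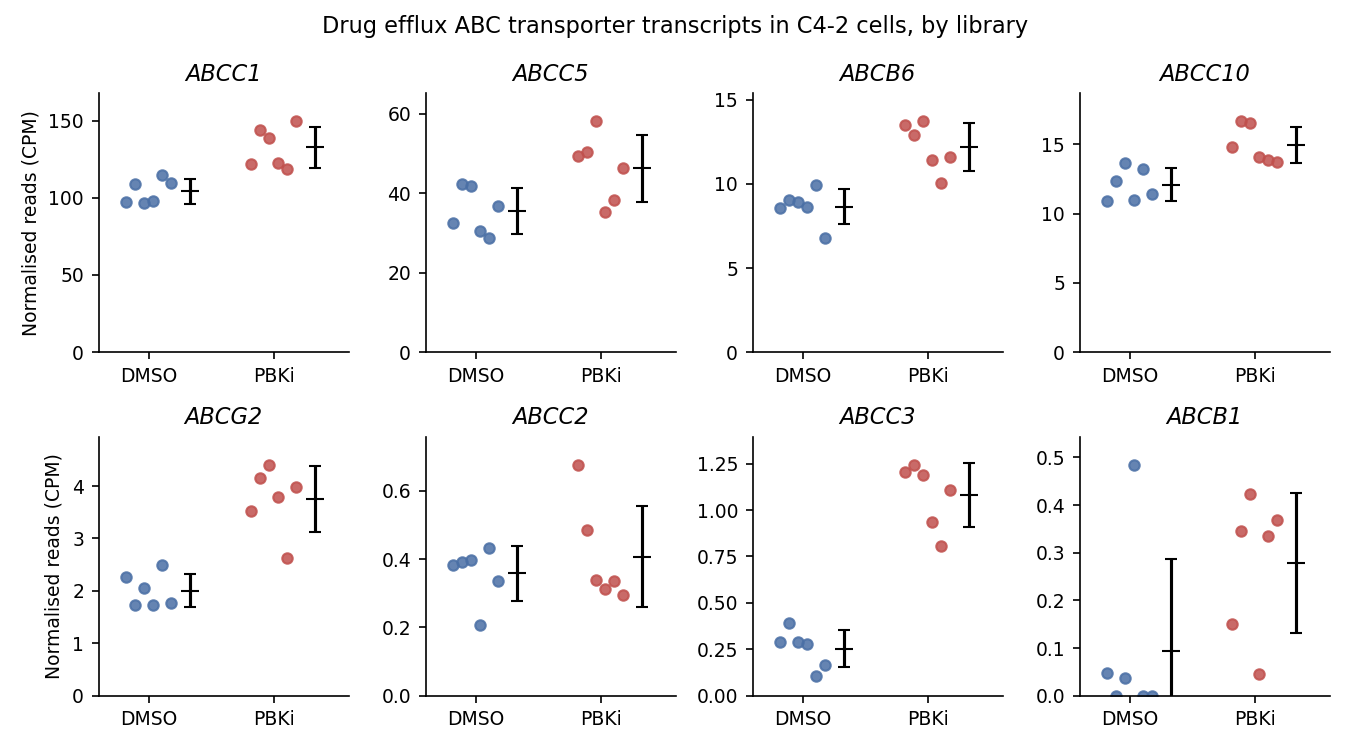
Normalised reads (CPM, linear axes from 0) of the 8 transporters in the 6 DMSO (blue) and 6 PBKi (red) libraries, in order of replicate number from left to right, with bars at the mean ± SD; the lower bar of ABCB1 in DMSO is cut at 0. The groups are separate for ABCC1, ABCB6, ABCC10, ABCG2 and ABCC3, overlap for ABCC5 and ABCC2, and in ABCB1 a DMSO library (replicate 4, 0.485 CPM) is the highest point.

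The upstream sequences are shown because NRF2 and AHR act through short motifs, and the members differ in which of these they hold near a start site. RefSeq windows of 250 bases before a start site (GRCh38.p14) were listed for 6 of the 8 genes, with no entry for ABCC1 or ABCC3. They were searched on both strands for TGACNNNGC, the core of the antioxidant response element, and for GCGTG, the core bound by AHR with its partner. Of all 35116 windows of this length, 10.9% held the first motif and 32.2% the second. Both motifs were chosen after the values were known, and a match is a run of letters, not a site shown to be used. One window is printed for each of the 4 tested genes with an entry, in lower case on the strand of the gene, with matches in capitals (CACGC is the second motif on the other strand). Where a gene had several windows, the one with the most matches is shown, and among equals the one furthest upstream. The ABCG2 window is chr4:88158910-88159159 (minus strand), ABCB6 chr2:219218959-219219208 (minus), ABCC10 chr6:43427291-43427540 (plus) and ABCC5 chr3:184017885-184018134 (minus).
ABCG2: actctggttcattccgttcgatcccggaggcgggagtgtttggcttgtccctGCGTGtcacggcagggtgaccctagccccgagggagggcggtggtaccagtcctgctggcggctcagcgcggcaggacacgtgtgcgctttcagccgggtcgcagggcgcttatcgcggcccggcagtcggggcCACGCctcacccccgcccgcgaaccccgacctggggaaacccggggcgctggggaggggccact
ABCB6: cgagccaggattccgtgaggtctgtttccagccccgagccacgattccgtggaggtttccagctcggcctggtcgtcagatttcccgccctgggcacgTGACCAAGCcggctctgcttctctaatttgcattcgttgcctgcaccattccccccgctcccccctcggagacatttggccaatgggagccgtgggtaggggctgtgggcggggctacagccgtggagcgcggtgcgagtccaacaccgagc
ABCC10: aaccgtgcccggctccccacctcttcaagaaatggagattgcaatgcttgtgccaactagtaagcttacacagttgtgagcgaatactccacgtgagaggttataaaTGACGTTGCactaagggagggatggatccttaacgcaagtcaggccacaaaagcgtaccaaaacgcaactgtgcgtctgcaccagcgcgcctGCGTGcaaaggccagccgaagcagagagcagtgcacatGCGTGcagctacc
ABCC5: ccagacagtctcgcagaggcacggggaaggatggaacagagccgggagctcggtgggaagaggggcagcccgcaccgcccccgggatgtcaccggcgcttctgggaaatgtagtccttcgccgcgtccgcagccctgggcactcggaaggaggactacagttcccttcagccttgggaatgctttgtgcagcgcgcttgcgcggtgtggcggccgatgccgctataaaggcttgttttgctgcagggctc

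ABCG2 had 2 matches of the AHR core here, ending 193 bases (forward strand) and 59 bases (other strand) before the start site, and 3 of its 5 listed windows held that core, with the same 2 matches in a second window that overlaps the printed one. None of the 5 held the antioxidant core. ABCB6 had a single antioxidant core, TGACCAAGC, ending 143 bases before the start. ABCC10 had both, with TGACGTTGC ending 134 bases and GCGTG ending 46 and 8 bases before the start, while its other listed window held neither. The ABCC5 window and the single ABCC2 window held neither motif, and 1 of 2 ABCB1 windows held GCGTG. Matches of the motifs did not overlap each other. Levels were not compared between genes with and without a match, and the letters say nothing of binding in these cells.

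The multidrug resistance proteins of the C subfamily hold the most abundant of the 8 transcripts, ABCC1. They also hold the largest fitted change among the tested members, that of ABCC3, which passed the filter only through PBKi. ABCC1 (MRP1, ENSG00000103222, GRCh37 chr16:16042995-16237114, plus strand) exports glutathione conjugates and leukotriene C4. Its level in DMSO replicates 1 to 6 was 97.1, 109.1, 96.6, 97.6, 114.6 and 109.5 CPM. In PBKi it was 122.0, 144.1, 138.9, 122.5, 118.5 and 149.6 CPM. The groups did not overlap, with the lowest PBKi library (replicate 5) just above the highest DMSO library (also replicate 5). The mean rose from 104 ± 7.89 to 133 ± 13.2 CPM (SD, n = 6 each), a 1.28-fold change (log2 fold change 0.35, standard error 0.068, edgeR adjusted p = 0.000501). The two-sided exact permutation test on log2 CPM gave p = 0.00216, the smallest that 6 against 6 allow.

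ABCC3 (MRP3, ENSG00000108846, chr17:48712138-48769614, plus strand) carries glucuronides and bile acids and sits on the basolateral side of liver and gut cells. It was barely read in DMSO, at 6, 5, 8, 4, 1 and 2 reads in replicates 1 to 6. In PBKi it had 16, 18, 28, 21, 12 and 15 reads. Every PBKi library had more reads than any DMSO library. Scaled, the levels were 0.254 ± 0.101 CPM in DMSO and 1.08 ± 0.173 CPM in PBKi (SD, n = 6 each), at 3.95-fold the largest fitted change among the tested members (log2 fold change 1.98, standard error 0.24, edgeR adjusted p = 4.74e-06, exact permutation p = 0.00216). These p-values belong to a gene that entered the test through its PBKi libraries. Its totals of 26 and 110 reads give a depth-corrected ratio of 4.01, with a 95% exact interval of 2.60 to 6.41 that covers counting error only. No DMSO library reached 10 reads, so under a filter of 10 reads in all 12 libraries this gene was not tested.

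ABCC5 (MRP5, ENSG00000114770, chr3:183637722-183735727, minus strand) exports cyclic nucleotides and nucleotide analogue drugs. Its DMSO libraries, replicates 1 to 6, read 32.5, 42.4, 41.7, 30.5, 28.7 and 36.7 CPM. Its PBKi libraries read 49.3, 50.2, 58.1, 35.1, 38.3 and 46.3 CPM. The groups overlapped, since PBKi replicates 4 and 5 lay within the DMSO range and the other 4 above it. The means were 35.4 ± 5.80 and 46.2 ± 8.40 CPM (SD, n = 6 each), a rise of 1.30-fold (log2 fold change 0.38, standard error 0.12, edgeR adjusted p = 0.0163, exact permutation p = 0.0325). Without PBKi replicate 3 the log2 fold change was 0.297 with an edgeR adjusted p of 0.0501, and leaving out PBKi replicates 3 and 6, both high in reads outside genes, gave 0.286 with an adjusted p of 0.101. The exact permutation p was at or above 0.05 in 7 of 12 analyses that left out a library each, and reached 0.0649.

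ABCC10 (MRP7, ENSG00000124574, chr6:43395104-43418165, plus strand) is known for moving taxanes and other lipophilic drugs. DMSO replicates 1 to 6 had 10.9, 12.3, 13.7, 11.01, 13.2 and 11.4 CPM. PBKi replicates had 14.8, 16.7, 16.5, 14.1, 13.9 and 13.7 CPM. The groups touched without overlapping, at 13.67 CPM in DMSO replicate 3 and 13.74 CPM in PBKi replicate 6. The rise from 12.1 ± 1.17 to 14.9 ± 1.33 CPM (SD, n = 6 each) was the smallest of the 6 tested genes at 1.24-fold (log2 fold change 0.31, standard error 0.082, edgeR adjusted p = 0.00587, exact permutation p = 0.00216). ABCC10 shares 76 exon bases (0.94% of its exon length) with DLK2 on the opposite strand, and the strand setting of the counting is not stated. No other member shared exon bases with a counted gene.

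ABCC2 (MRP2, ENSG00000023839, chr10:101542397-101612351, plus strand) exports conjugates at the apical face of liver and kidney cells. It had 8, 5, 11, 3, 4 and 4 reads in DMSO replicates 1 to 6 and 9, 7, 8, 7, 5 and 4 in PBKi. The groups overlapped, with 2 PBKi libraries above the DMSO range, and the ratio of total reads (35 and 40) was 1.08 with a 95% exact interval of 0.671 to 1.76. The exact permutation p was 0.558. A difference was not detectable at this depth, and a change up to the upper bound is within the counting error.

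The pumps of the G and B subfamilies covered a wide range of levels. ABCG2 (breast cancer resistance protein, ENSG00000118777, chr4:89011302-89152780, minus strand) works as a dimer and exports urate, porphyrins and many drugs. DMSO replicates 1 to 6 had 2.26, 1.73, 2.06, 1.73, 2.49 and 1.76 CPM. PBKi replicates had 3.53, 4.15, 4.41, 3.79, 2.62 and 3.99 CPM. The groups did not overlap, and PBKi replicate 5 was the lowest of its group, near the highest DMSO library. The mean rose from 2.00 ± 0.320 to 3.75 ± 0.629 CPM (SD, n = 6 each), or 1.88-fold (log2 fold change 0.91, standard error 0.15, edgeR adjusted p = 9.19e-05, exact permutation p = 0.00216). The totals behind it were 195 and 389 reads.

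ABCB6 (ENSG00000115657, chr2:220074494-220083716, minus strand) moves porphyrins and is found in organelle membranes as well as at the cell surface. Its DMSO levels were 8.59, 9.02, 8.91, 8.66, 9.95 and 6.80 CPM in replicates 1 to 6. Its PBKi levels were 13.5, 12.9, 13.7, 11.4, 10.07 and 11.6 CPM. The groups did not overlap, the nearest libraries being replicate 5 of each group at 9.95 and 10.07 CPM. The mean rose from 8.65 ± 1.03 to 12.2 ± 1.42 CPM (SD, n = 6 each), 1.41-fold (log2 fold change 0.50, standard error 0.096, edgeR adjusted p = 0.000476, exact permutation p = 0.00216).

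ABCB1 (P-glycoprotein, MDR1, ENSG00000085563, chr7:87132333-87342639, minus strand) is the classical multidrug pump. In these cells it was close to the detection limit. DMSO replicates 1 to 6 had 1, 0, 1, 7, 0 and 0 reads, and PBKi replicates 2, 5, 10, 1, 5 and 5. The 7 reads of DMSO replicate 4 (0.485 CPM) made up most of the 9 in that group and exceeded every PBKi library in CPM, while PBKi replicate 4, with 1 read, was the lowest of its group. The total of 28 reads in PBKi gave a ratio of 2.95 with a 95% exact interval of 1.35 to 7.11, for counting error only. Between libraries the exact permutation p was 0.0455, and it was at or above 0.05 in 10 of 12 analyses that left out a library each, with a highest value of 0.0866. Without DMSO replicate 4 it was 0.00866. In a fit with no count filter the log2 fold change was 1.48 (standard error 0.59, edgeR adjusted p = 0.0648), so ABCB1 is not counted as changed.

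Levels of different genes were compared as RPKM, here CPM divided by the length in kilobases of the union of exons, a scale on which ABCC1 led the 8 genes. In DMSO its level was 11.9 ± 0.903 RPKM (SD, n = 6). ABCC5 followed at 3.12 ± 0.511, ABCB6 at 1.66 ± 0.198, ABCC10 at 1.49 ± 0.145 and ABCG2 at 0.358 ± 0.0571 RPKM. At the foot were ABCC2 (0.0457 ± 0.0102), ABCC3 (0.0264 ± 0.0105) and ABCB1 (0.0148 ± 0.0299 RPKM). ABCB6 and ABCC10 overlapped library by library, as did ABCC2 with ABCC3 and ABCC3 with ABCB1, whereas the other neighbours in this order did not. In PBKi the order was the same except that ABCC3, at 0.112 ± 0.0180 RPKM, stood above ABCC2 at 0.0519 ± 0.0189 RPKM, with the lowest ABCC3 library (0.0838) just below the highest ABCC2 library (0.0863).

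**Figure D2:**
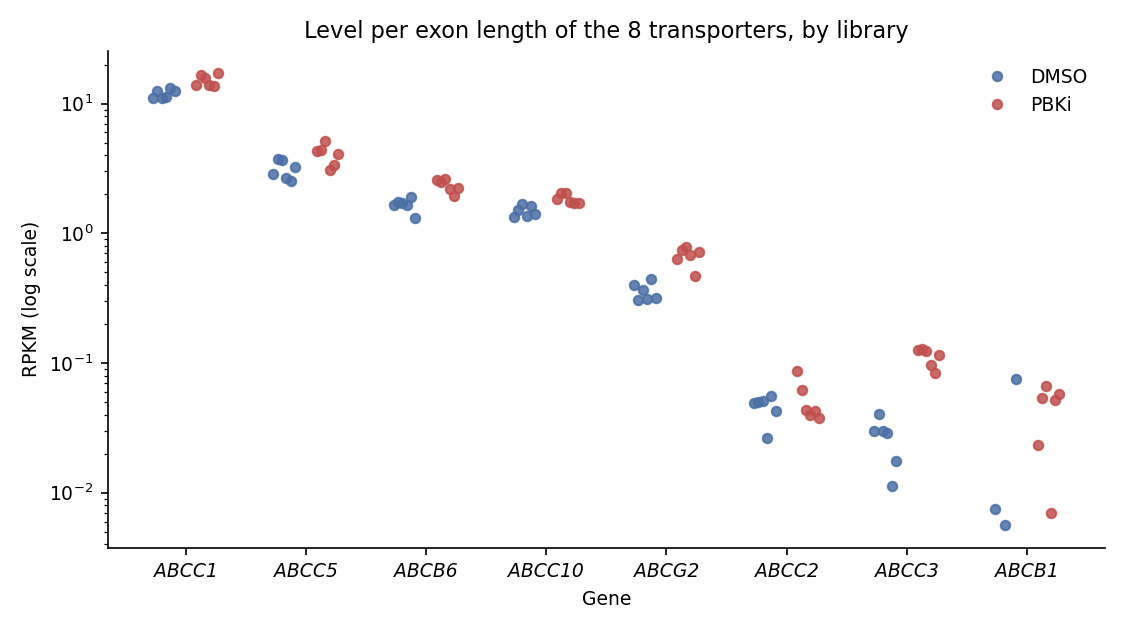
Level per exon length (RPKM, log axis) of the 8 transporters in each DMSO (blue) and PBKi (red) library, ordered by the DMSO mean. ABCC1 lies between 11.1 and 17.1 RPKM in all libraries, ABCC2, ABCC3 and ABCB1 lie under 0.2 RPKM, and the 3 DMSO libraries without an ABCB1 read cannot be drawn on this axis.

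Summed over the 8 genes, the level was 18.6 ± 1.08 RPKM in DMSO (17.3 to 19.9) and 24.3 ± 2.42 RPKM in PBKi (21.2 to 26.7; SD, n = 6 each). By union exon length, ABCC1 made up 63.9 ± 2.64% of this sum in DMSO and 62.5 ± 2.64% in PBKi (shares per longest transcript were not computed). The tested transcripts with the largest fitted fold changes therefore added little to the total. ABCC3 held 0.142% of the summed means in DMSO and 0.462% in PBKi, and ABCG2 held 1.92% and 2.75%. ABCC4 (MRP4), a relative outside the list that exports cyclic nucleotides and prostaglandins, was above them all at 45.2 ± 4.40 RPKM in DMSO. It fell to 28.8 ± 2.21 RPKM in PBKi, so the rise in the sum of the 8 genes did not extend to every MRP transcript. ABCC1 stood at 26.5 ± 2.97% of ABCC4 in DMSO (23.6 to 31.5%) and 53.1 ± 7.63% in PBKi (45.0 to 64.2%). As ABCC1 rose and ABCC4 fell, each without overlap between groups, these ratios had to separate the groups.

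Direction was shared between the replicate numbers 1 to 3 and 4 to 6. This division was taken from earlier analyses of these libraries and is not named as a batch in the labels. For all tested members except ABCC5 the groups did not overlap, so this shared direction was largely fixed in advance and is not support. In replicates 1 to 3 alone (3 libraries a group) the log2 fold changes were 1.95 for ABCC3, 1.00 for ABCG2, 0.62 for ABCB6, 0.46 for ABCC5, 0.44 for ABCC1 and 0.39 for ABCC10, each with an edgeR adjusted p under 0.05. In replicates 4 to 6 alone they were 2.22, 0.83, 0.39, 0.31, 0.28 and 0.24 in the same order. There ABCC3 (edgeR adjusted p = 0.00429) and ABCG2 (0.0326) passed, and ABCB6 (0.0817), ABCC5 (0.0959), ABCC1 (0.0695) and ABCC10 (0.168) did not. The difference between the sets was not tested.

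**Figure D3:**
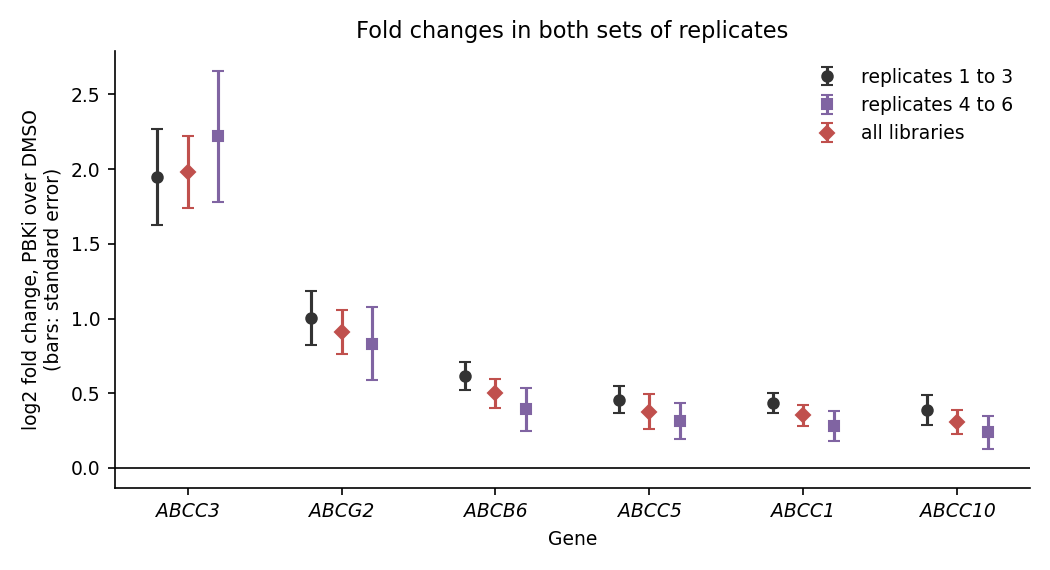
Log2 fold change of PBKi over DMSO for the 6 tested transporters in replicates 1 to 3 (black circles), all libraries (red diamonds) and replicates 4 to 6 (purple squares), with bars of the standard error. All points lie above 0, which was largely fixed in advance for all genes but ABCC5, whose groups overlapped. ABCC3 is the only gene whose value is larger in replicates 4 to 6 (2.22) than in replicates 1 to 3 (1.95).

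The rest of the ABC family moved in both directions. Of 40 other ABC genes, 28 were tested, and 7 were higher and 6 lower in PBKi, beside 20.1% and 21.5% of all genes. Their median log2 fold change was 0.05, beside -0.01 for all genes tested, and that of the tested members was 0.44 with ABCC3 and 0.38 without it. By subfamily, A had 4 higher and 1 lower of 8 tested, B had 1 and 3 of 8, and C had 0 and 1 of 4. F had 2 and 0 of 3, and G had 0 and 1 of 1. The higher calls of A, and so the 7 above, include ABCA4. That gene passed the filter only through the PBKi libraries, so its call is not support. For the 3 D genes and the single E gene the count was 0 in both directions. At an unadjusted p under 0.05 in edgeR, the zeros of C (higher), E (lower), D, F (lower) and G (higher) became 1, 1, 0, 0 and 0, and DESeq2 and limma-voom left all of them at 0.

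Several A subfamily genes, which move lipids, rose by more than most of the drug pumps. ABCA4, the retinoid transporter of photoreceptors, went from 0.219 ± 0.134 to 3.60 ± 1.03 CPM (log2 fold change 4.22, standard error 0.32, edgeR adjusted p = 2.11e-08) and, like ABCC3, passed the filter only through PBKi. ABCA12, the lipid transporter of skin cells, went from 1.90 ± 0.432 to 6.86 ± 0.942 CPM (log2 fold change 1.92, adjusted p = 2.76e-08). ABCA1, which exports cholesterol, had a log2 fold change of 0.86 (edgeR adjusted p = 0.00861), overlapping groups, and an adjusted p of 0.0687 without PBKi replicates 3 and 6. ABCA5 had 0.60 (edgeR adjusted p = 0.00366), also with overlap. TAP1, ABCF1 and ABCF3 completed the genes that rose, while ABCA2, ABCB10 and ABCG1 were among those that fell, beside the relatives described next.

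ABCC4 and ABCB4, close relatives of members, both fell. ABCC4 was the most abundant ABC transcript named here, at 355.7 to 457.5 CPM in DMSO (mean 390 ± 37.9) and 213.8 to 268 CPM in PBKi (248 ± 19.1; SD, n = 6 each). The groups did not overlap, and the log2 fold change was -0.65 (standard error 0.068, edgeR adjusted p = 7.95e-07). ABCB4, the phospholipid transporter whose gene neighbours ABCB1, had 0.864 ± 0.193 CPM in DMSO and 0.444 ± 0.139 CPM in PBKi (log2 fold change -0.90, standard error 0.24, edgeR adjusted p = 0.00665), with overlapping groups. It did not pass in replicates 1 to 3 alone (edgeR adjusted p = 0.0576) or 4 to 6 alone (0.135).

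**Figure D4:**
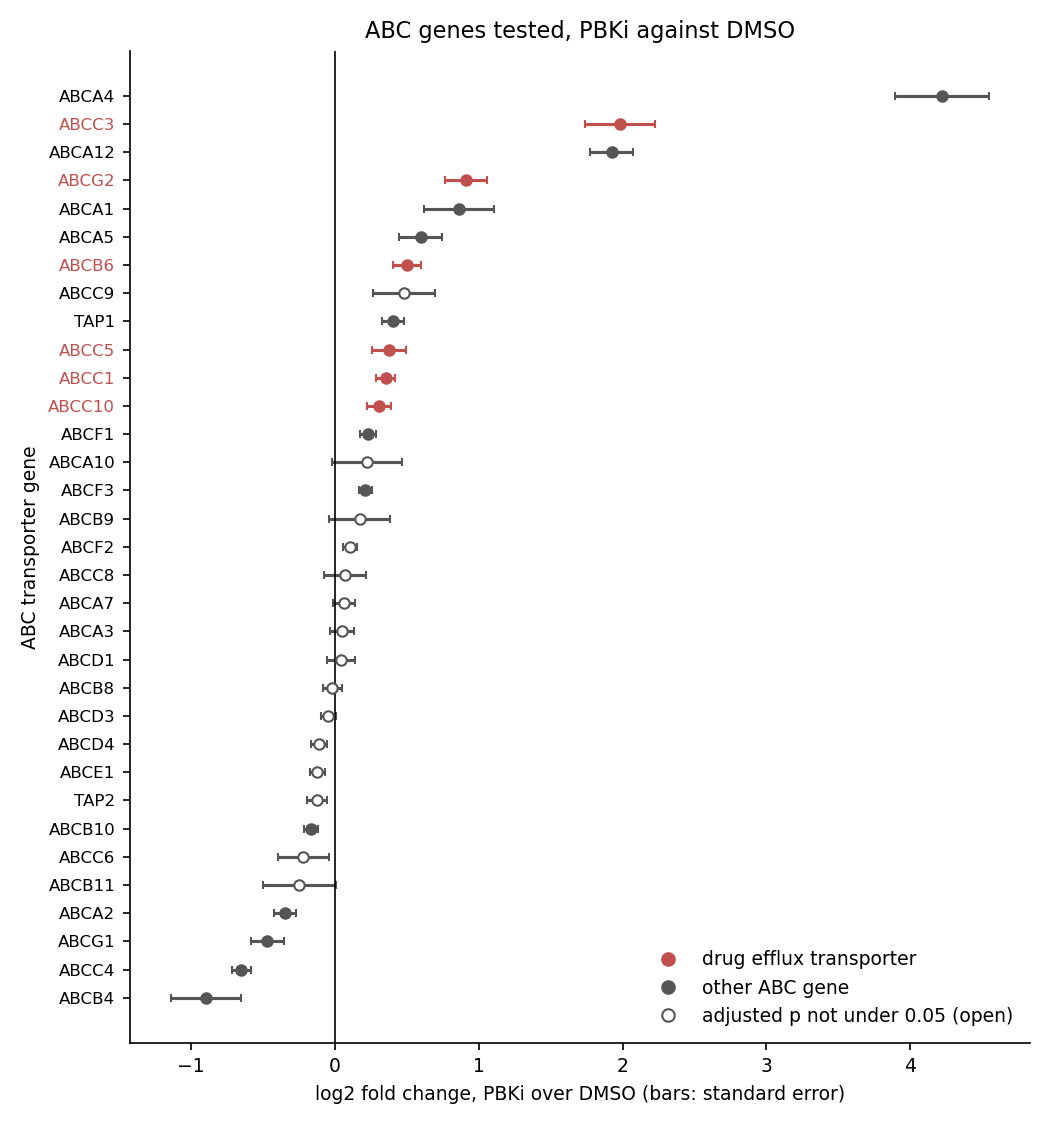
Log2 fold change of PBKi over DMSO (x axis, bars of the standard error) for 33 of the 34 ABC genes tested, sorted by value. The listed drug efflux transporters are in red and the other ABC genes, ABCC4 (MRP4) among them, in grey. Open circles mark an edgeR adjusted p not under 0.05. The 6 red points lie between 0.31 and 1.98, above 0, and grey points lie on both sides, from -0.90 (ABCB4) to 4.22 (ABCA4).

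Factors known to regulate efflux pump genes were listed next. Of 26, 23 were tested, and 10 were higher and 0 lower in PBKi, with a median log2 fold change of 0.10 beside -0.01 for all genes and calls of 20.1% and 21.5%. At an unadjusted p under 0.05 in edgeR 2 were lower, while DESeq2 and limma-voom gave 0. AHR went from 14.8 ± 1.76 to 29.7 ± 3.74 CPM (log2 fold change 1.01, standard error 0.092, edgeR adjusted p = 1.56e-07). AHRR, its repressor and target gene, had a log2 fold change of 0.93 (edgeR adjusted p = 0.00705) at under 2 CPM in group mean, but 0.63 with an adjusted p of 0.076 without PBKi replicates 3 and 6. MAFG (0.78), BACH1 (0.74) and KEAP1 (0.53), which pair with, compete with or degrade NRF2, rose with no overlap between groups (edgeR adjusted p = 3.21e-07, 4.42e-06 and 3.77e-06). NFE2L2 itself had a log2 fold change of 0.13 (edgeR adjusted p = 0.0359), and RXRA, PPARG, FOXO1 and FOXO3 were also higher.

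Enzymes that make and attach glutathione, the partner of many MRP substrates, gave 5 higher and 2 lower of 16 tested out of 18 (median log2 fold change 0.09), beside 20.1% and 21.5% of all genes. GCLM, the modifier subunit of the enzyme that starts glutathione synthesis, rose from 113 ± 7.58 to 378 ± 56.1 CPM (log2 fold change 1.75, edgeR adjusted p = 5.20e-11). GCLC, the catalytic subunit, had a log2 fold change of 0.67 (edgeR adjusted p = 1.78e-06), and MGST1, a membrane glutathione transferase, 0.56 (adjusted p = 5.82e-06). GSTO1 fell, at -0.52 (edgeR adjusted p = 0.000137), as did MGST2. GSR and GSTA4 were the other genes that rose. GSTP1 had 0 reads in every library, so it was not detected at this depth.

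Carriers of the SLC families, which move drugs mostly into cells or exchange them, gave 3 higher and 4 lower of 11 tested out of 19 (median log2 fold change 0.05), also beside 20.1% and 21.5% of all genes. With library totals the SLC counts were 4 and 3. SLC47A1, a proton-coupled exporter of organic cations, went from 0.357 ± 0.151 to 1.07 ± 0.443 CPM (log2 fold change 1.52, edgeR adjusted p = 0.00128). The DMSO libraries of SLC47A1 lay at 0.138 to 0.549 CPM, near the 0.108 to 0.325 CPM that 3 reads gave. SLC47A2, its relative, had 0.91 (edgeR adjusted p = 0.0228), but 0.77 with an adjusted p of 0.0703 without PBKi replicate 3. SLC22A3, an organic cation carrier, fell from 4.41 ± 0.893 to 1.82 ± 0.519 CPM (log2 fold change -1.31, edgeR adjusted p = 1.93e-05). SLC29A1, the main nucleoside carrier and an entry route for nucleoside drugs, fell as well (log2 fold change -0.59, edgeR adjusted p = 2.49e-05).

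ABCC3, the tested member with the largest fitted change, was compared with all genes tested over the 12 libraries. Each gene was centred on its own mean of log2 CPM. The nearest patterns were ID2, an inhibitor of helix-loop-helix factors, with a root mean square difference of 0.184 log2 units, PHEX, a membrane endopeptidase (0.194), and ATF3, a stress-induced transcription factor (0.217). Their own log2 fold changes were 1.58, 1.93 and 1.67, but a near pattern over both groups brings a like fold change with it. PHEX was also low, at a mean of 0.356 CPM in DMSO. The likeness is a description and carries no test, and the low read counts of ABCC3 make its own pattern imprecise.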

How the data were processed

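RNAseq libraries of C4-2 cells (6 DMSO, 6 PBKi) were made with a TruSeq kit and sequenced as short single-end reads. The authors aligned them to GRCh37 with TopHat 2.0.4 and deposited raw gene counts made with HTSeq-count 0.5.3p9, in 47 files, 1 per sequencing lane.

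Lane counts were summed per library (DMSO replicate 5 had 3 lanes, the others 4), since chi-square per degree of freedom was 0.990 to 1.02 between lanes of 1 library and 3.74 to 22.2 between replicates. The summary lines of HTSeq were left out (reads outside genes 5.74 to 9.30%, ambiguous reads 3.87 to 4.35%). Symbols came from the supplied gene tables (47098 of 54127 genes), which matched 136 of 137 listed genes (not PECAM1), and loci from GENCODE 44 mapped to GRCh37. Genes reaching 10 counts in 6 or more libraries were tested with the quasi-likelihood test of edgeR 4.0.16 (R 4.3.3) on TMM-scaled counts, without covariates, with Benjamini-Hochberg adjustment at 0.05. Single genes were also tested by two-sided exact permutation of log2 CPM (prior count 2) over all 924 splits. RPKM used the union of exons of GENCODE 44, a later release than the counts, so lengths may include exons that were not counted. Depth sets the precision of low genes, and intervals cover counting error only.

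The members, gene lists and tests were chosen with earlier results of these data known. From each list, genes were named if called with a log2 fold change of 0.5 or more in size, up to 5 per direction, with ABCC4 and ABCB4 added as relatives of members; genes named without values belong to the counts, and 1 item is not reported here. Replicate numbers were not used to pair libraries in the main fit, since the labels name no shared culture or day. Same-numbered libraries still correlated in their deviations from the group means, at 0.0887 to 0.299, with 1 of 6 under 0.1. Of 12 libraries, 8 correlated best with their own number, and a replicate block was run as an alternative. Alternatives were DESeq2 1.42.0, limma-voom (limma 3.58.1), RLE factors, library totals, other filters and thresholds, a replicate block, a term for replicates 1 to 3 against 4 to 6, each of these sets alone, lanes 6 to 8, longest transcripts and leaving out each library. Leaving out PBKi replicates 3 and 6 was added after seeing the data. The scripts were tested on simulated data.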

Additional observations from a re-analysis of the deposited data

Results flagged for a closer look

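The ABCB1 level of DMSO replicate 4 (0.485 CPM, 7 reads) stood apart from the other 5 DMSO libraries, which lay between 0 and 0.048 CPM. The gap to the nearest of them was 0.901 of the range of the group, above the limit of Dixon's test for 6 values. It was the only such value among 54 groups of 6 values examined, and chance alone flags about 5% of groups. Where the 7 reads came from was not tested.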

How the results depend on the processing

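No value reversed under any alternative run, and no alternative counted a member lower in PBKi. For members whose groups did not overlap, leaving out libraries or setting a stricter limit could hardly reverse the direction. The count of members higher stayed at 6 under 19 of 26 alternatives. It was 2 in replicates 4 to 6 alone and 2 when a log2 fold change of 0.5 or more in size was also asked for (ABCC3 and ABCG2, with ABCB6 just under the limit). It was 5 under the remaining alternatives: ABCC3 fell below the filter in lanes 6 to 8 and with 10 counts in all 12 libraries, and ABCC5 was lost without PBKi replicate 3, without PBKi replicates 3 and 6, and at an adjusted p under 0.01. DESeq2 and limma-voom both counted 6.

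With the fold limit, the other counts of genes higher and lower were 4 and 2 for the other ABC genes, 5 higher for the regulators, 3 and 1 for glutathione enzymes, 2 lower for SLC carriers, and 1278 and 626 for all genes. In replicates 4 to 6 alone they were 3 and 2 for the other ABC genes, 4 higher for the regulators, 0 and 2 for SLC carriers, and 1303 and 1216 for all genes. SLC carriers counted higher were 5 without a count filter and 1 with 10 counts in all libraries. Glutathione enzymes counted lower were 4 in replicates 1 to 3 alone. Over all genes, 2076 were lower without PBKi replicates 3 and 6 and 2073 at an adjusted p under 0.01. Regulators counted lower ranged from 0 to 1 when a library was left out. The causes of these changes were not tested, and several of these alternatives had fewer libraries or a stricter limit.

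With a replicate block, 6 members were higher (ABCC5 at an edgeR adjusted p of 4.5e-05), 2 regulators (ARNT and RXRB) and 4 glutathione enzymes were lower, and the term for replicates 1 to 3 against 4 to 6 gave the same counts of 2 and 4. Same-numbered libraries correlated in their deviations at 0.0887 to 0.299, and 8 of 12 libraries correlated best with their own number.

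Of 33 tests of single genes, 11 lost their call under at least 1 alternative, 9 of them in replicates 4 to 6 alone. Per longest transcript the DMSO levels were ABCC1 15.8, ABCC5 6.05, ABCB6 2.88, ABCC10 2.38, ABCC2 0.0617 and ABCC3 0.0445 RPKM, with all 8 genes in the same order. Depth limits ABCB1 and ABCC2, which had 0 to 11 reads per library.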
